A study of Mus musculus with 6 samples.

Results

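The 10 genes described here are the zinc finger transcription factor genes Egr1, Egr2 and Egr3, their corepressor genes Nab1 and Nab2, the orphan nuclear receptor genes Nr4a1, Nr4a2 and Nr4a3, and the immediate early response genes Ier2 and Ier3. They were taken by symbol from the deposited exon read count table, where all 10 were found among 23453 gene rows and all 10 were among the 12423 genes that passed the filter on low counts. RNA was sequenced from OT1 splenocyte cultures on the C57BL/6 strain, labelled as cytotoxic T lymphocytes, from mice with a transgenic T cell receptor that recognises a peptide of OVA. All cultures received the peptide for 48 h and then FCM or TCM for 8 h, with 3 libraries per group. FCM and TCM are not expanded in the labels, and the FCM samples are titled vehicle. No library from before the peptide or before the medium was analysed here, so the values compare the groups after treatment and do not measure induction. The labels do not give the age of the mice or say whether replicates came from separate animals or cultures, so the p-values reflect the spread among these libraries alone, and that spread may be technical.

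EGR and NR4A genes are switched on within minutes of antigen receptor signalling, through the ERK kinases, serum response factor, calcium, calcineurin and NFAT, and their messages are short-lived. In T cells, EGR2 and EGR3 restrain activation and are known from anergy, NAB1 and NAB2 bind EGR proteins and repress their targets, and NR4A receptors are known from tolerance and exhaustion. IER2 and IER3 are encoded by small genes that respond to growth factors and stress, and IER3 is linked to NF-kB and p53 signalling.

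The 2 deposited tables title the groups oppositely: in 6 of 6 cases, a normalized column titled for one group held the reads that the count table lists under the other, at an equal replicate number. TCM-titled and FCM-titled below follow the column titles of the counts, and every direction reverses under the titles of the normalized table. Libraries held 17166687 to 25789381 counts, and the 10 genes held 701 to 14123 counts in each library. The replicate 1 libraries of both groups stood apart from the others: chi-square per gene was 58.7 to 104 in pairs that held replicate 1 and 4.87 and 7.12 between replicates 2 and 3. Cell type markers moved with the groups. Of 9 tested neutrophil markers 9 were lower in the TCM-titled libraries (summed level 7924 to 12473 against 1117 to 2167 CPM, which are counts relative to library size, scaled with TMM), as were 8 of 9 macrophage and monocyte markers (634 to 698 against 133 to 152 CPM) and 5 of 8 B cell markers (1692 to 2045 against 962 to 1159 CPM). T cell markers, with 1 of 9 higher and 1 lower, summed to 799 to 916 against 891 to 999 CPM. Natural killer (3 of 4 tested lower), dendritic (3 of 5) and erythroid and platelet markers (3 of 4) summed to at most 81.2 CPM in any library, with Klra4 at 0, and no marker of the other lists found in the table was at 0 in all libraries. In bulk RNA, fewer cells of a type and less RNA per cell cannot be told apart, and the part of cell makeup in the results below was not tested.

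The promoters below show the upstream letters of the NR4A genes, which all held repeats of the cyclic AMP response element (CRE) core, and, for comparison, of Egr2 with fewer and Ier3 with none. RefSeq promoter windows (GRCm38.p6) matched 7 of the 10 genes, with 5 start sites for Egr2. Egr1, Egr3 and Ier2 had no entry. The 250 bases before each start were searched on both strands, and bases that GENCODE M21 annotates as exon are left out of what is printed. Capitals mark the CRE core TGACG (or CGTCA on the other strand), the early growth response site GCGGGGGCG (or CGCCCCCGC) and the CArG box, which binds serum response factor. The Nr4a1 window and the Egr2 window printed here lie inside their genes, at internal starts.
Nr4a1, chr15:101266596-101266845, plus strand: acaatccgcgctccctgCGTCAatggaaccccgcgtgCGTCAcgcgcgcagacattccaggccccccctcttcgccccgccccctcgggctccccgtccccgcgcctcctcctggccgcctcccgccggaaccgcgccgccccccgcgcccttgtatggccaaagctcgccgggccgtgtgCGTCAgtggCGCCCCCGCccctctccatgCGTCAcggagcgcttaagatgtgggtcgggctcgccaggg
Nr4a2, chr2:57124004-57124253, minus strand: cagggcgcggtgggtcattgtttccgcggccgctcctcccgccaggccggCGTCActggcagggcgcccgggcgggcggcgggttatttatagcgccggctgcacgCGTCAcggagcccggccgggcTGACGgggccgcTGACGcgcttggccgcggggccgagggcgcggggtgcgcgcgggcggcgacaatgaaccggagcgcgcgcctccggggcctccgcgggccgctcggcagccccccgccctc
Nr4a3, chr4:48045055-48045152, plus strand: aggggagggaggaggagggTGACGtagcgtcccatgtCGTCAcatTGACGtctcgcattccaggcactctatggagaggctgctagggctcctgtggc
Ier3, chr17:35821463-35821683, plus strand: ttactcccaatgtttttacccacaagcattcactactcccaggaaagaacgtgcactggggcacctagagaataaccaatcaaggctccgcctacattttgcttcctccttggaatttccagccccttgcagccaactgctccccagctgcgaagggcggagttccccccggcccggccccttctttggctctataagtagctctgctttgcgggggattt
Egr2, chr10:67537619-67537868, plus strand: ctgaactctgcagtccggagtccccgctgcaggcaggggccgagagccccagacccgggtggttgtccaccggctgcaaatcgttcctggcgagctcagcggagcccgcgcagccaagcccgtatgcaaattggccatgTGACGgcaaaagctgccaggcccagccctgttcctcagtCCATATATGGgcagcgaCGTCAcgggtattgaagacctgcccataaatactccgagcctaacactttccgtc

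Each of the 3 NR4A windows held 4 CRE cores over its 250 bases, of which 1 in Nr4a3 lay in annotated exon and is not printed. Of all 32851 promoter windows of that length, 17.8% held at least 1 such core and 0.137% held at least 4. The cut at 4 equals the number in the NR4A windows themselves and was not planned, so the 0.137% is a description and not a test. The full CRE TGACGTCA (1.55% of windows) and the NR4A monomer site AAAGGTCA (1.34%) were in none of the members' windows. Like Ier3, Nab2 held no CRE core, and Egr3 had no window to search. The CArG box, found in 1.47% of windows, was in 4 of the 5 Egr2 windows, which are not separate finds. The Egr2 windows from 67537619, 67537620 and 67537680 overlap and hold the same box, CCATATATGG. The Egr2 window from 67537316 held another box, CCTTTTTTGG, and no CRE core. The Egr2 window from 67535249, at the annotated start of the gene, held no CArG box and no CRE core. In Nab1 the early growth response site GCGTGGGCG (0.536% of windows) was matched 2 times and GCGGGGGCG (2.57%) 1 time, all within bases annotated as exon. The Nr4a1 window held GCGGGGGCG 1 time, apart from the CRE cores. The ETS core GGAA was in 93.4% of windows and in every window of the 7 genes that had one, in Nab1 only within exon bases. A match describes the letters and is not evidence of binding.

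Of the 10 genes, 3 were called higher in the TCM-titled libraries, none lower and 7 were not called (edgeR's quasi-likelihood test, adjusted p under 0.05, Benjamini-Hochberg over 12423 genes). Over all genes tested, 58.8% were called in either direction, 28.8% higher and 30.0% lower, where 30.0% of these 10 genes were called. With library totals alone as scaling, 2364 genes were called higher and 3965 lower, beside 3584 and 3726 with TMM. With the replicate number as a block, a pairing the data bear out for replicate 1 but not between replicates 2 and 3, 4 of the 10 genes were called higher and 1 lower against 73.3% of all genes. Without the replicate 1 libraries 4 were called higher and 3 lower against 74.2%. At 2-fold or more, 2 of the 10 genes were called, both higher, against 23.7% of all genes in either direction and 13.1% higher. In 3 of the 10 genes every library of one group lay above every library of the other, against 64.2% of all genes. The median log2 difference was 0.13, beside -0.02 over all genes. Egr3 and Ier3 were the 2 genes past 2-fold, and both were called in all 14 alternative settings that keep the count table's header. The other 8 genes lay between -0.46 and 0.36 on the log2 scale.

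**Figure D1:**
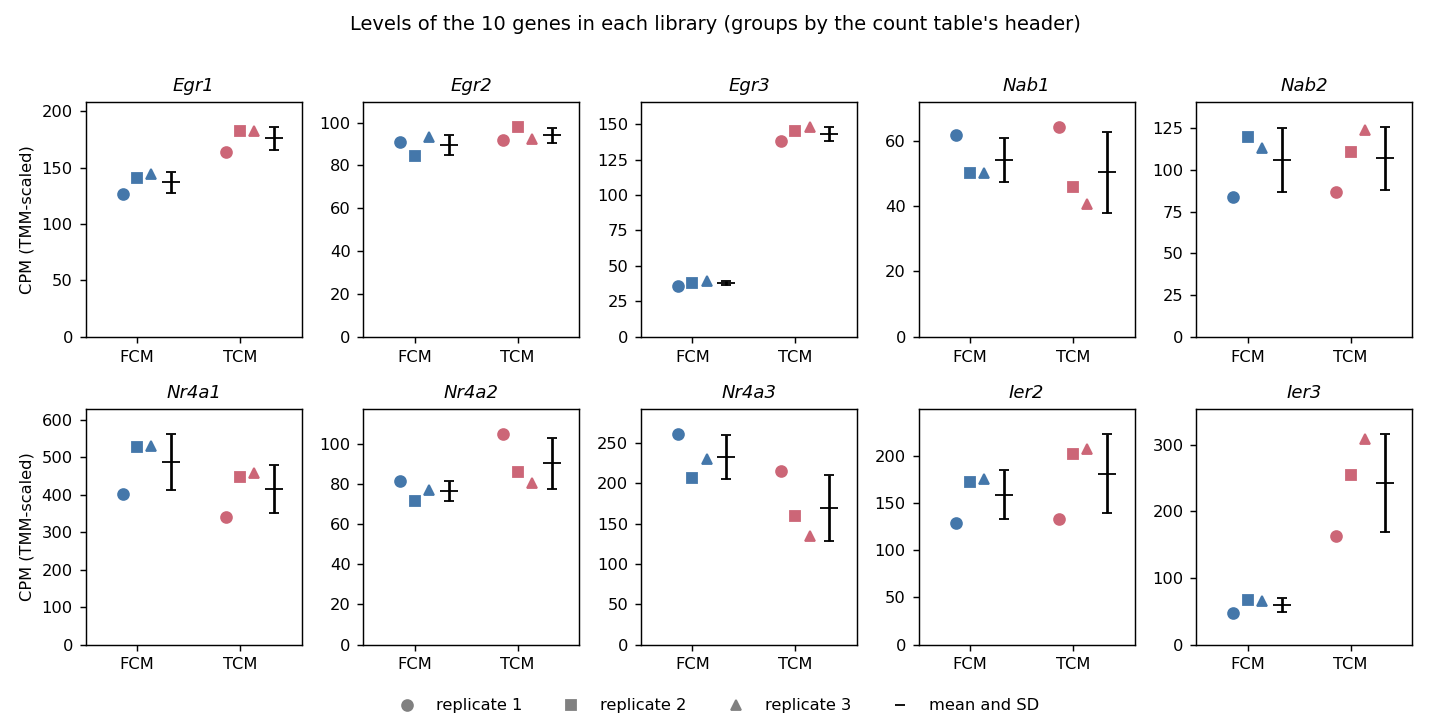
Levels of the 10 genes in each library in CPM (TMM-scaled, vertical axes from 0), with groups by the count table's header, a marker shape for each replicate number, and the mean with SD in black (n = 3). Egr3 runs from 36.2 to 39.5 CPM in FCM and from 138 to 148 CPM in TCM, while the groups overlap in Egr2, Nab1, Nab2, Nr4a1, Nr4a2, Nr4a3 and Ier2.

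Among the EGR factors, Egr3 rose most, Egr1 rose slightly and Egr2 was not called. Egr3, which encodes a factor that acts with EGR2 in restraining T cells, had 36.2, 38.1 and 39.5 CPM in FCM replicates 1 to 3 and 138, 145 and 148 CPM in TCM replicates 1 to 3 of the count table. All 3 TCM-titled libraries were above all 3 FCM-titled libraries by a margin far wider than the spread within either group. It rose 3.78-fold, from 37.9 ± 1.66 to 143 ± 5.05 CPM (SD, n = 3), by 1.92 ± 0.12 on the log2 scale (SE; adjusted p = 3.24e-06, edgeR). Over the settings its log2 difference ran from 1.70 to 1.96.

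Egr1, the prototype of the family, had 127, 141 and 144 CPM in FCM-titled libraries and 164, 182 and 182 CPM in TCM-titled libraries. The groups did not overlap, but the gap between them was small. It rose 1.28-fold (log2 difference 0.36 ± 0.13 SE, 95% interval 0.06 to 0.65, adjusted p = 0.0393, edgeR). The call was lost when any 1 library other than TCM replicate 1 was left out (adjusted p 0.0932 to 0.121, edgeR), and with library totals alone as scaling its log2 difference was 0.14. With the replicate block the adjusted p was 0.0017 (edgeR).

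Egr2, the anergy-associated factor, had 90.9, 84.3 and 93.3 CPM in FCM-titled libraries and 91.8, 98.0 and 92.2 CPM in TCM-titled libraries. The groups overlapped. Its log2 difference was 0.07 ± 0.12 (SE; 95% interval -0.19 to 0.34, adjusted p = 0.617, edgeR), so a change as large as that of Egr3 lies outside the interval. Within each library, the ratio of Egr3 to Egr2 counts does not depend on library scaling. It was 0.398, 0.452 and 0.423 in FCM-titled libraries and 1.5, 1.47 and 1.6 in TCM-titled libraries, a 3.60-fold difference with no overlap. The ratio of Egr3 to Egr1 counts was 0.286, 0.270 and 0.274 against 0.838, 0.795 and 0.812, a 2.95-fold difference. Each of these gave p = 0.1 in a two-sided exact permutation test, the smallest that 3 against 3 libraries allow (0.2 after adjustment over the 6 ratios compared, which were chosen after the values were seen).

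Egr4, the remaining family member and outside the 10 genes, went the other way at a low level. It had 46, 95 and 93 counts in FCM-titled libraries and 2, 6 and 5 counts in TCM-titled libraries, with no overlap. Its level fell from 3.08 ± 0.862 to 0.260 ± 0.144 CPM (SD, n = 3; log2 difference -3.59 ± 0.41 SE, adjusted p = 0.000105, edgeR).

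Levels were also counted per kilobase of exon, for a rough comparison between genes. The length is that of all annotated exons of a gene, which can exceed the transcript expressed here. On this scale the 4 EGR genes summed to 64.2 to 70.2 CPM per kb in FCM-titled libraries and 95 to 102 in TCM-titled libraries. Egr3 made up 12.8% ± 0.117 (SD, n = 3) of that sum in FCM-titled libraries and 32.7% ± 0.555 in TCM-titled libraries. The share of Egr2 was 39.3% ± 2.24 and 27.8% ± 0.886, and that of Egr1 45.7% ± 1.65 and 39.4% ± 0.732. Egr4 held 2.13% ± 0.535 and 0.120% ± 0.0637. The NR4A family summed to 178 to 209 CPM per kb in FCM-titled libraries and 159 to 175 in TCM-titled libraries.

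**Figure D2:**
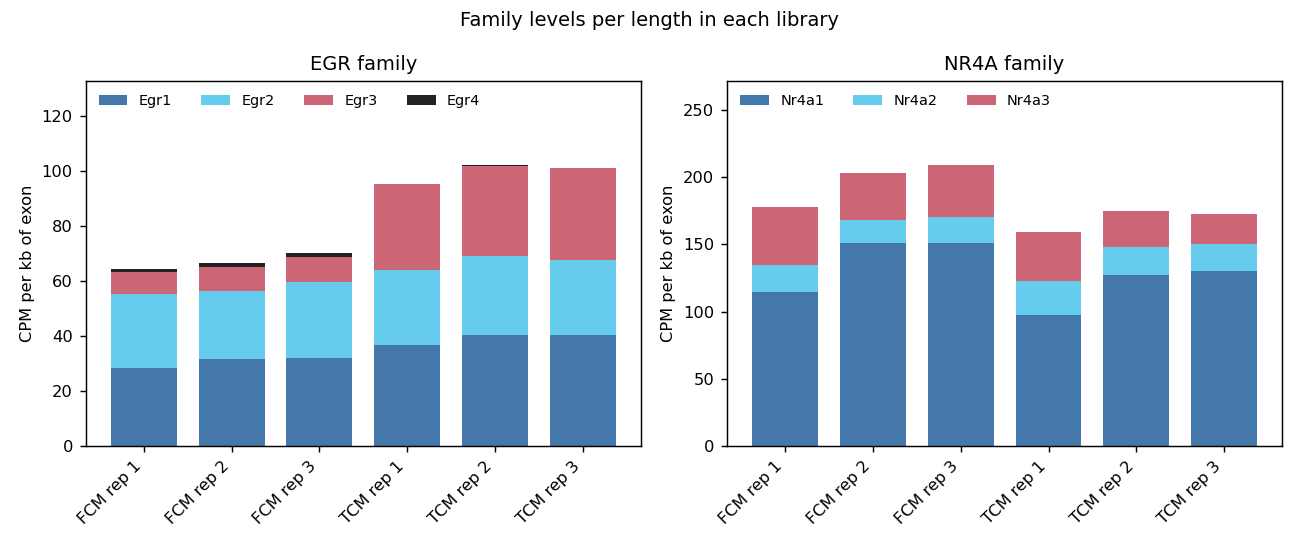
Levels of the EGR family (left) and the NR4A family (right) in each library in CPM per kb of exon, stacked by gene, with groups by the count table's header. The Egr3 share of the EGR sum is 12.8% to 13.0% in the FCM bars and 32.0% to 33.1% in the TCM bars, and Nr4a1 takes 61.1% to 75.5% of the NR4A sum in every bar.

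The corepressor genes were not called. Nab2, itself a known target of EGR factors, had 83.9, 119.6 and 113 CPM in FCM-titled libraries and 86.6, 110.5 and 124 CPM in TCM-titled libraries. Its log2 difference was 0.02 ± 0.18 (SE; 95% interval -0.40 to 0.43, adjusted p = 0.938, edgeR), with replicate 1 lowest in both groups. Exons of Nab2 share bases with Stat6, Nemp1 and Gm16229, and without a stated strand setting reads in the shared bases cannot be told apart. How much of Nab2 is shared was not measured. Nab1 had 61.7, 50.2 and 50.1 CPM against 64.2, 45.9 and 40.7 CPM, with replicate 1 highest in both groups. Its log2 difference was -0.10 ± 0.18 (SE; 95% interval -0.51 to 0.31, adjusted p = 0.643, edgeR). Without the replicate 1 libraries it was called lower at -0.22 (adjusted p = 0.0325, edgeR).

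The NR4A genes were not called by group alone, and each differed in 1 direction in all 3 same-numbered pairs. Among the 10 genes, Egr1, Egr3, Ier2 and Ier3 did so too, and Ier2 was likewise not called. Over all genes tested, 64.2% had groups without overlap, which fixes the direction in all 3 pairs. The share of all genes with 1 direction in all 3 pairs is thus at least 64.2% and was not counted, so the pattern does not set the NR4A genes apart. The data do not show that replicates 2 and 3 pair by number, so the pairs are a description. Nr4a1, a widely used readout of T cell receptor signal strength, had 402, 528 and 531 CPM in FCM-titled libraries and 340.2, 446 and 459 CPM in TCM-titled libraries. It was lower in TCM-titled libraries in 3 of 3 pairs, while the groups overlapped, with replicate 1 lowest in both. Its log2 difference was -0.23 ± 0.18 (SE; 95% interval -0.65 to 0.19, adjusted p = 0.306, and adjusted p = 0.0535 with the replicate block, edgeR).

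Nr4a3 had 261, 207 and 231 CPM in FCM-titled libraries and 215, 160.0 and 135 CPM in TCM-titled libraries. It too was lower in TCM-titled libraries in 3 of 3 pairs, and the groups overlapped through TCM replicate 1. Its log2 difference was -0.46 ± 0.19 (SE; 95% interval -0.89 to -0.02), which missed the threshold by group alone (adjusted p = 0.0664) and passed with the replicate block (-0.48, adjusted p = 3.30e-05, edgeR). Without TCM replicate 1 it passed at -0.66 (adjusted p = 0.00448, edgeR).

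Nr4a2 had 81.7, 71.7 and 77.4 CPM in FCM-titled libraries and 105, 86.2 and 80.5 CPM in TCM-titled libraries. It was higher in TCM-titled libraries in 3 of 3 pairs, opposite to Nr4a1 and Nr4a3. Its log2 difference was 0.24 ± 0.14 (SE; 95% interval -0.08 to 0.55, adjusted p = 0.171), and it passed with the replicate block at 0.23 (adjusted p = 0.0429, edgeR). It was not called and lay lower with library totals alone (0.04), without TCM replicate 1 (0.12) and without both replicate 1 libraries (0.15), with adjusted p of 0.896, 0.385 and 0.117 (edgeR). The ratio of Nr4a2 to Nr4a1 counts was higher in TCM-titled libraries in 3 of 3 pairs (0.203, 0.136 and 0.146 against 0.308, 0.193 and 0.175), but the groups overlapped (p = 0.3, two-sided exact permutation test). The ratio of Nr4a3 to Nr4a1 counts was 0.651, 0.391 and 0.436 against 0.632, 0.359 and 0.294 and overlapped likewise (p = 0.5, two-sided exact permutation test).

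Ier3, which encodes a small stress-induced protein that modulates cell survival, had 46.6, 66.3 and 64.8 CPM in FCM-titled libraries and 163, 254 and 308 CPM in TCM-titled libraries. Every TCM-titled library was above every FCM-titled library, and replicate 1 was lowest in both groups. It rose 4.08-fold, from 59.2 ± 11 to 242 ± 73.3 CPM (SD, n = 3), by 2.03 ± 0.25 on the log2 scale (SE; adjusted p = 0.000165, edgeR). With the trend on transcript length removed, its log2 difference was 1.48, below the 1.96 of Egr3 in that setting, so the order of Ier3 and Egr3 by size depends on the processing. Ier2, the other gene of this name, encodes a nuclear protein and was not called. It had 129, 172 and 176 CPM in FCM-titled libraries and 133, 202 and 207 CPM in TCM-titled libraries. Its log2 difference of 0.18 ± 0.20 (SE; 95% interval -0.28 to 0.65, adjusted p = 0.464, edgeR) turned to -0.05 with library totals alone and to -0.25 with the length trend removed. The ratio of Ier3 to Ier2 counts was 0.361, 0.385 and 0.368 in FCM-titled libraries and 1.23, 1.25 and 1.49 in TCM-titled libraries. That is a 3.56-fold difference without overlap, with p = 0.1, the smallest the two-sided exact permutation test allows.

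**Figure D3:**
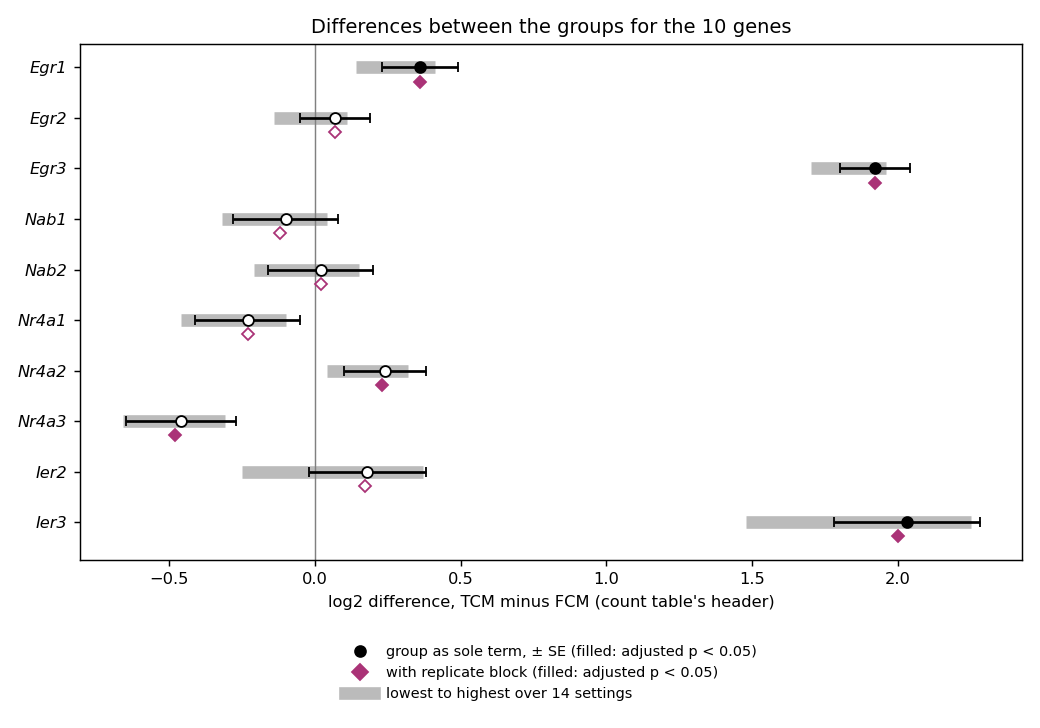
Log2 difference of each of the 10 genes, TCM-titled libraries minus FCM-titled libraries: circles with SE from the fit with the group as the sole term, diamonds from the fit with the replicate block, filled where adjusted p is under 0.05, and grey bars from the lowest to the highest value over 14 settings. Egr3 and Ier3 stand at 1.92 and 2.03, while Nr4a2 and Nr4a3 are filled with the block alone.

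Replicate 1 differed from replicates 2 and 3 in the same direction in both groups for 9 of the 10 genes. On the log2 scale, Ier3 in replicate 1 lay below the mean of replicates 2 and 3, at -0.49 in FCM-titled libraries and -0.78 in TCM-titled libraries. Ier2 (-0.43 and -0.63), Nab2 (-0.47 and -0.43) and Nr4a1 (-0.40 and -0.41) did the same, and Egr1 and Egr3 did so by smaller amounts. Nab1 (0.30 and 0.57), Nr4a3 (0.26 and 0.55) and Nr4a2 (0.13 and 0.33) were higher in replicate 1 of both groups. In Nab1, Nab2, Nr4a1 and Ier2 these values were larger in size than the difference between the groups.

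Per kilobase of exon, Nr4a1 ranked first in FCM-titled libraries at 139 ± 21.1 CPM per kb (SD, n = 3), followed by Ier2 at 105 ± 17.2, and the ranges of the pair overlapped. Ier3 at 52.4 ± 9.72, Nr4a3 at 39.0 ± 4.57, Nab2 at 35.9 ± 6.49 and Egr1 at 30.6 ± 2.08 followed, each overlapping its neighbour. Egr2 at 26.3 ± 1.37, Nr4a2 at 19.0 ± 1.24, Nab1 at 13.2 ± 1.62 and Egr3 at 8.60 ± 0.377 came last and did not overlap each other. In TCM-titled libraries, Ier3 ranked first at 214 ± 64.8, above Ier2 at 119 ± 27.5 and Nr4a1 at 118 ± 18.6, which overlapped each other. These levels keep the trend on transcript length, whose removal took the log2 difference of Ier3 from 2.03 to 1.48. Egr1 at 39.3 ± 2.25, Nab2 at 36.4 ± 6.44, Egr3 at 32.5 ± 1.15, Nr4a3 at 28.4 ± 6.83 and Egr2 at 27.7 ± 1.02 formed a run of overlapping neighbours. Nr4a2 at 22.3 ± 3.15 and Nab1 at 12.3 ± 3.0 came last, so Egr3 moved from the last to the sixth place.

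All 10 genes are protein-coding in GENCODE M21 on GRCm38. Egr1 lies on chromosome 18 (34859823 to 34864984), Egr2 on chromosome 10 (67535475 to 67542188) and Egr3 on chromosome 14 (70077203 to 70082614). Nab1 lies on chromosome 1 (52457294 to 52500679), and Nab2 on chromosome 10 (127660918 to 127668568). Nr4a1 is on chromosome 15 (101254269 to 101274795), Nr4a2 on chromosome 2 (57106830 to 57124003) and Nr4a3 on chromosome 4 (48045153 to 48086447). Ier2 is on chromosome 8 (84661331 to 84662852) and Ier3 on chromosome 17 (35821684 to 35822923). None of them but Nab2 overlaps another annotated gene.

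Genes of the pathways that drive these factors were called in both directions, as were genes in general. Over all genes tested 28.8% were called higher and 30.0% lower, the shares to set beside each list below. In the ERK pathway list 4 of 17 tested genes were called higher and 5 lower in TCM-titled libraries (median log2 difference -0.02, as over all genes), or 2 higher with library totals alone. Rasgrp1, which activates RAS below the T cell receptor, went from 47.3 ± 2.76 down to 18.5 ± 1.45 CPM (SD, n = 3), a 2.56-fold fall. The feedback inhibitor genes Spry1 and Spry2 fell 3.26-fold and 2.61-fold, Spry1 from 356 ± 60.7 to 109 ± 18.1 CPM. Their adjusted p-values were 2.20e-05 to 9.83e-05 (edgeR).

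In the calcium, calcineurin and NFAT list 8 of 16 genes were called higher and 5 lower (median 0.18), or 3 higher with library totals alone. Without TCM replicate 2 or TCM replicate 3, 3 were called lower, and 2 with the length trend removed. Rcan3, a calcineurin regulator, and Ppp3r1, the calcineurin regulatory subunit, rose 2.04-fold and 2.01-fold. Ppp3cc, a catalytic subunit gene, rose 1.6-fold (adjusted p 0.000205 to 0.00129 for the 3 genes, edgeR) and was not called with library totals alone. In the proximal T cell receptor list 2 of 18 genes were called higher and 7 lower (median -0.09), and 4 higher and 8 lower with the replicate block. Without FCM replicate 2, TCM replicate 2 or TCM replicate 3 the counts were 1 higher and 4 lower, and leaving out FCM replicate 1 or 3 also left 1 higher. Zap70, which encodes a kinase recruited to the T cell receptor, fell 1.81-fold (adjusted p = 0.000362, edgeR), with 147 ± 7.58 CPM in FCM-titled and 81.4 ± 0.936 CPM in TCM-titled libraries (SD, n = 3).

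Of 9 tested genes of other EGR members and partners 2 were called higher and 3 lower (median -0.30), or 3 and 5 with the replicate block. Without TCM replicate 1, 5 were lower, and without TCM replicate 2 or with library totals alone 1 was higher. Besides Egr4, the ETS factor gene Elk3 rose 1.73-fold and the coactivator gene Ep300 fell 1.77-fold (adjusted p = 0.00031 and 0.00101, edgeR). Among 11 tested NR4A partners and regulators 2 were higher and 3 lower (median -0.04), or 3 and 5 with the block, and 1 higher with library totals alone or 4 with the length trend removed. Crem, which encodes a CRE-binding factor, rose 3.12-fold, with 87.5 ± 12.6 CPM in FCM-titled and 273 ± 42.5 CPM in TCM-titled libraries (SD, n = 3; adjusted p = 7.66e-05, edgeR). Cabin1 and Mef2c, a calcineurin inhibitor and a MEF2 factor on the NR4A route, fell 1.95-fold and 2.29-fold (adjusted p = 0.000329 and 0.000528, edgeR). B cells and myeloid cells also express Mef2c, and markers of both were lower in the same libraries.

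Of 34 other immediate early genes 15 were called higher and 8 lower (median 0.40), against 58.8% of all genes called in either direction. The counts were 11 higher and 10 lower with library totals alone, 21 and 10 with the replicate block, and 22 and 10 without the replicate 1 libraries. Plk2, a p53-responsive kinase gene, rose 3.46-fold from 16.8 ± 0.824 to 58.1 ± 0.787 CPM, and Ier5l rose 6.85-fold from 3.0 ± 0.688 to 20.8 ± 5.84 CPM (SD, n = 3). Klf4, a quiescence-linked factor gene also active in myeloid cells, fell 3.45-fold from 32.9 ± 4.67 to 9.58 ± 1.82 CPM. Adjusted p-values of the 3 genes were 2.60e-06 to 3.82e-05 (edgeR).

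Genes reported as targets of EGR2 and EGR3 in T cells were called in both directions. Of 22 tested, 3 were called higher and 6 lower (median -0.14), against 28.8% higher and 30.0% lower over all genes. Without the replicate 1 libraries 10 were called lower, where 4771 of 12585 genes were. Crtam, an adhesion receptor gene, had 26.4 ± 0.928 CPM in FCM-titled and 3.64 ± 0.337 CPM in TCM-titled libraries, a 7.23-fold fall (SD, n = 3), and Nrn1, which encodes neuritin, fell 2.74-fold. Cdkn1a, the cell cycle inhibitor gene that is also a p53 target, rose 6.85-fold from 269 ± 52.2 to 1841 ± 323 CPM. Adjusted p-values were 5.76e-07 to 0.000225 (edgeR). Of 18 genes linked to NR4A factors in T cells, 6 were called higher and 9 lower (median -0.49), against the same shares of all genes. Ctla4, an inhibitory receptor gene, reached 375 ± 53.2 from 46.5 ± 2.62 CPM and Gzmb 2859 ± 309 from 488 ± 39.9 CPM. Entpd1, an ectonucleotidase gene, fell 3.03-fold (adjusted p 1.46e-06 to 1.73e-05 for the 3 genes, edgeR). Which cells the Entpd1 reads came from was not tested, and markers of B cells and macrophages were lower in the same libraries. Every one of these directions reverses with the other table's titles.

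**Figure D4:**
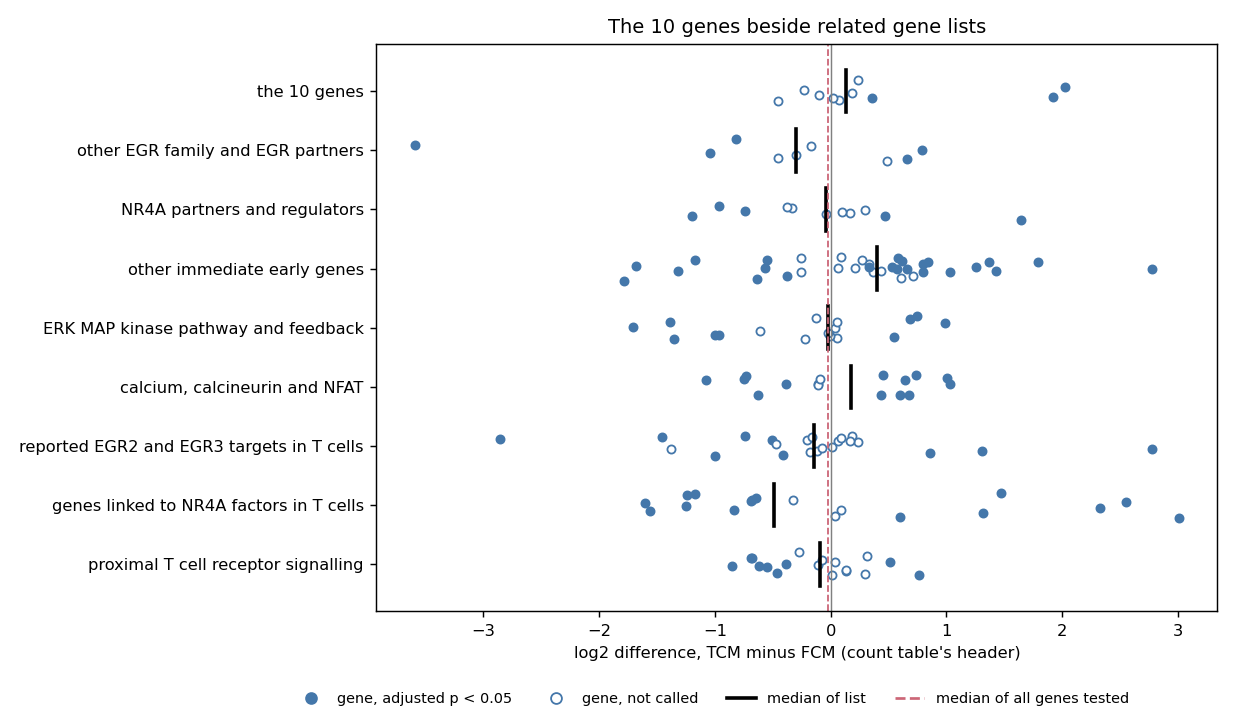
Log2 difference of each tested gene, TCM-titled libraries minus FCM-titled libraries, in the 10 genes and in 8 lists of related genes, filled where adjusted p is under 0.05, with the list's median as a black bar and the median of all tested genes (-0.02) as a dashed line. The 10 genes hold 3 filled points, while the 34 other immediate early genes hold filled points on both sides, 15 higher and 8 lower.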

How the data were processed

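The submitters' processing notes name the aligner STAR (2.7.2d), DESeq2 (1.28.1) and the build mm10, with no role given. How exon reads were counted, with which annotation and strand, is not given in the sources used here. One deposited table lists raw exon read counts by gene symbol. The other lists a signal, made by the authors from those counts with a size factor for each library. Of its values above 0, 100% came out as whole reads (tolerance 0.1 reads), and edgeR on these reads under that table's header called 3726 genes higher and 3584 lower. The 92 spike-in rows held 0 counts and were left out.

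After filterByExpr and TMM scaling, the groups were compared in edgeR 4.0.16 under R 4.3.3 by its quasi-likelihood test, without covariates. SE is the log2 difference divided by the square root of F, and intervals are 95%. The fit was first tried on simulated counts. Of 99 genes changed by 1 on the log2 scale 88 were called the right way, of 99 changed by 2 all 99, and 11 unchanged genes were called. Those counts had a common spread for all genes and no replicate 1 effect, so the trial does not cover that feature of the data. Same-numbered libraries of the groups deviated together (correlations 0.60, 0.146 and 0.36 over genes), which met the rule for a block by the titles' replicate numbers. No label states a pairing, and FCM replicate 2 correlated more with TCM replicate 3 (0.424) than with TCM replicate 2, and FCM replicate 3 with TCM replicate 2 at 0.266. The check thus sets replicate 1 apart and does not show that replicates 2 and 3 pair by number. In the blocked fit, edgeR pooled the quasi-likelihood spread fully over genes, so its p-values do not use a gene's own spread.

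The named genes are all 10 members and, in each of 8 lists from general knowledge, the 3 called genes with the smallest adjusted p. Some of these genes are not reported here. Markers are given as sums. Members and lists were chosen with earlier results of these data known. Alternatives were DESeq2 1.42.0 as scaling and as test, library totals, no filter, the replicate block, each library or both replicate 1 libraries left out, the other header and, added after seeing the data, removal of a trend on transcript length with and without the block. Depth was 17166687 to 25789381 counts per library. 1 count was worth 0.0374 to 0.0655 CPM. Exon lengths and overlaps come from GENCODE M21, matched by symbol for 93.8% of tested genes.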

Additional observations from a re-analysis of the deposited data

How the results depend on the processing

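Egr3 and Ier3 kept their direction and call in all 14 settings that keep the count table's header, and no other member did. Of the 24 related genes taken by the rule for named genes, 23 did, all but Ppp3cc (0.48 with library totals). Under the normalized table's header no member was called higher and 3 lower (0 and 3), with log2 differences of -0.36 for Egr1, -0.07 for Egr2, -1.92 for Egr3, 0.10 for Nab1, -0.02 for Nab2, 0.23 for Nr4a1, -0.24 for Nr4a2, 0.46 for Nr4a3, -0.18 for Ier2 and -2.03 for Ier3. With library totals alone the median of all genes shifted by -0.21 and 2364 genes were called higher, where 3584 were with TMM and 3965 were called lower. Under that scaling Egr1 was at 0.14, Egr2 at -0.14, Nab2 at -0.21, Ier2 at -0.05, Nr4a2 at 0.04 and Nr4a1, called lower as the 1 member, at -0.46. Without the filter Egr1 was at 0.35 and not called (adjusted p = 0.0763 in edgeR).

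With the replicate block 5 members were called, 1 of them lower, against 73.3% of all genes. Nr4a2 passed at 0.23 and Nr4a3 at -0.48, and the block changed no other member's call. Without both replicate 1 libraries 7 members were called, 3 of them lower, against 74.2% of all genes. Nab1 at -0.22, Nr4a1 at -0.24, Nr4a3 at -0.58 and Ier2 at 0.22 were now past the threshold, with Nab2 at -0.002 and Nr4a2 at 0.15. With the length trend removed Egr2 was at -0.01, Nab2 at -0.13 and Ier2 at -0.25. With that and the replicate block together 7 members were called, 3 of them lower, where 8721 of all 12423 genes were called. Among the 7 were Nr4a1 at -0.30, Nr4a2 at 0.23, Nr4a3 at -0.34 and Ier2 at -0.25, while Egr2 was at -0.01 and Nab2 at -0.13. Leaving out 1 library at a time, 2 to 4 members were called and 0 to 1 were lower. Over all genes the calls then ran from 5696 of 12659 genes to 8229 of 12650 genes. Egr1 ran from 0.30 to 0.41, Nab1 from -0.32 to 0.04, Nab2 from -0.13 to 0.15, Nr4a2 from 0.12 to 0.32 and Nr4a3 from -0.66 to -0.31. The causes were not tested. The 10 genes had 701 to 14123 counts per library, while Egr4 rests on 2 to 6 counts per TCM-titled library.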

Other observations

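Outside the 10 genes, some related immediate early genes went opposite ways in the same libraries, as Egr3 and Egr4 did. These 5 genes were chosen after their values were seen. Fos rose from 13.2 ± 1.55 to 27.1 ± 2.94 CPM (SD, n = 3; log2 difference 1.03 ± 0.14 SE, adjusted p = 0.000257, edgeR), while Fosb fell from 12.3 ± 2.47 to 3.87 ± 1.0 CPM (-1.68 ± 0.22, adjusted p = 0.000235). Both encode FOS-type subunits of the AP-1 complex. Junb rose from 643 ± 142 to 1532 ± 460.4 CPM (1.25 ± 0.27, adjusted p = 0.00397, edgeR), while Jun fell from 211 ± 16.0 to 142 ± 25.7 CPM (-0.57 ± 0.16, adjusted p = 0.0146). Klf2, a quiescence factor gene, fell with Klf4, from 133 ± 27.8 to 53.3 ± 9.37 CPM (-1.32 ± 0.20, adjusted p = 0.000513, edgeR). Jun was called in 12 of the 14 settings and the other 4 genes in all 14. All directions are by the count table's header, and markers of neutrophils, macrophages and B cells were lower in the same TCM-titled libraries.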
